A study of Homo sapiens with 6 samples.

Results

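The 10 genes described here form the MYC network at the level of its DNA-binding proteins: MYC, MYCN and MYCL, their shared partner MAX, and the other MAX partners MXD1, MXD3, MXD4, MXI1, MNT and MGA. They were chosen by name from 20033 protein-coding genes, and for each one the peaks of open chromatin that overlap the gene body or lie within 10 kb of either end were collected. The 6 peak lists hold 84 and 69 such peaks in the naïve libraries, 110 and 95 in the R1 libraries and 49 and 54 in the R2 libraries. Merged over the lists they make 117 regions, of 373067 regions in all.

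ATAC-seq, in which the Tn5 transposase cuts and tags open chromatin, was carried out on cells grown out of xenografts of SK-N-AS, a human neuroblastoma line. Naïve cells came from a vehicle-treated tumor. R1 and R2 cells came from tumors that were resistant to indisulam, a molecular glue degrader of the splicing factor RBM39, and that were taken at the second relapse during the third treatment cycle. Each cell type has 2 libraries of 100000 cells, all from cells that received no treatment in culture. No source tells if both libraries of a group were separate cultures, so the spread between them may be technical, and R1 and R2 each stand for 1 resistant cell population.

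MYC, MYCN and MYCL are transcription factors that dimerize with MAX and bind the E-box CACGTG, where they recruit histone acetyltransferases and raise transcription. MXD proteins, MXI1 and MNT compete for MAX and bring the SIN3 corepressor with histone deacetylases to the same sites, while MGA joins MAX to a variant Polycomb complex, PRC1.6. Amplified MYCN is a classical driver of high-risk neuroblastoma, and SK-N-AS is known as a line without that amplification that relies on MYC.

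The lists differ widely in depth, and this touches every value that follows. They hold 154926 and 115694 peaks (naïve), 340558 and 292030 (R1) and 67558 and 73484 (R2). The background rate, the number of tags that the peak caller awaited at a position by chance, was recovered from the deposited folds and was 2.29 and 1.35 tags (naïve), 7.94 and 5.43 (R1) and 0.850 and 0.899 (R2). The lowest pileup, or number of tags over a summit, that was called a peak was therefore 9 and 7 tags (naïve), 18 and 14 (R1) and 6 and 6 (R2). Peak heights are given below as pileup over rate, and ranks as the percentile among genes, in which the best peak of a gene is placed among those of all 20033 genes of the same library and genes without a peak share the lowest place. Of the adrenergic neuroblastoma markers 9 to 10 of 10 had a peak at their own start in each library. Of the mesenchymal markers it was 8 to 10 of 10. Of the blood markers it was 1 to 3 of 6, and of the endothelial markers 0 to 3 of 4. The share of all protein-coding genes with such a peak ran from 65.5% (first R2 library) to 87.0% (first R1 library).

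Promoter sequences are shown for 3 members, taken from those whose promoter holds a match to a motif searched. A match was thus a condition of being shown, and the 3 differ in how they behave below. MYCN had the weakest best peak outside R1, and MXD4 the strongest in all but the second R2 library. MNT ranked lower in R1 by its best peak, which lay inside the gene and not at the printed promoter. The sequences are RefSeq windows of GRCh38.p14, from 250 bases before the start to 50 after it, 5′ to 3′ along the gene's strand. Capitals mark an exact match to a motif on either strand, the E2F motif TTTCGCGC in MYCN and the E-box CACGTG in MXD4 and MNT.
MYCN (chr2:15940300-15940599, plus strand): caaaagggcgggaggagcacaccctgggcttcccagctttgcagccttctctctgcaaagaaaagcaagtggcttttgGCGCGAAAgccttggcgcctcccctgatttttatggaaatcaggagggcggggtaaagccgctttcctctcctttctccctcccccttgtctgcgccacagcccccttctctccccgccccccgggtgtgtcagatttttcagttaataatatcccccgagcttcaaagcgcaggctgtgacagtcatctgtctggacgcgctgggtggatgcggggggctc
MXD4 (chr4:2262060-2262359, minus strand): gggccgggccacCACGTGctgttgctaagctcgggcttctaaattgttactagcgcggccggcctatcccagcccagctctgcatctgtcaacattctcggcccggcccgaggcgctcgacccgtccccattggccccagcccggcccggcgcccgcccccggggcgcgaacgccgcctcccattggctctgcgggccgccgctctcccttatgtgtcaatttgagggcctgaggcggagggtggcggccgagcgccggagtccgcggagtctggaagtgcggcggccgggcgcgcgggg
MNT (chr17:2401011-2401310, minus strand): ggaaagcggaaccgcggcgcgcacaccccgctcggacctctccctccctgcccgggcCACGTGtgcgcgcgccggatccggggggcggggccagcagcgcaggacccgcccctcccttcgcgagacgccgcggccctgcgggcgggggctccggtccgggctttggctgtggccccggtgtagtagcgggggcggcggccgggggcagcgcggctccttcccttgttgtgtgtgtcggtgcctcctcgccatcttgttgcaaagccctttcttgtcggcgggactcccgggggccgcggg

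The MYCN match lies on the opposite strand at base 79 of the window, and 0.515% of 35116 promoters of this length hold the motif. The E-boxes begin at base 13 in MXD4 and base 58 in MNT, and 7.26% of the promoters hold one. The motifs were searched in RefSeq promoters of 9 of the 10 members. MYC was left out of this search and of the search at summits that follows. Of the 9, MXD3 alone held the AP-1 motif TGANTCA in its promoter, against 7.71% of all promoters. Within 50 bases of the strongest summit at an own start, CACGTG was present for MAX and MXD3 and absent for MYCL, MXD1, MXD4, MXI1 and MNT, and 3.48% of the 24147 regions found in all lists held it there. A match describes letters only.

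A peak in the window was found in all 6 libraries for 9 of the 10 members, against 70.9% of all protein-coding genes. The exception was MYCN, which had none in the second R2 library. For 8 of the 10 the best peak was among the top 20000 of every list, against 47.8% of all genes, and the 2 others were MYCN and MYCL. Within 1 kb of a start of their own, 8 of the 10 had a peak in all libraries, against 59.5% of all genes, and here MYCN and MGA fell short. The median percentile among genes of the 10 members lay between 69.0 and 76.9 over the libraries.

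Taking the groups by overlap, MYCN was the 1 member with both R1 libraries above both naïve libraries in percentile among genes, and 31.3% of the 18792 genes with a peak in any library did the same. Both R1 libraries were below both naïve libraries for MXD1 and MNT, against 30.9% of genes. No member had R2 above naïve, against 27.1%, and MYC and MXD4 had R2 below naïve, against 21.2%. R1 was above R2 for MYC and MYCN, against 30.2%, and below R2 for MAX, MXD1 and MNT, against 27.9%. All 4 resistant libraries stood above naïve for no member and below it for no member, against 15.9% and 14.0% of genes. At the members' own starts the order was alike: R1 was above naïve for MYCN (32.3% of 17582 genes) and below it for MXD1, MXD4 and MNT (28.6%), R2 was above naïve for none (28.5%) and below it for MXD4 (20.4%), and R1 was above R2 for MYC and MYCN (31.9%) and below it for MYCL, MAX, MXD1 and MNT (25.1%). With 2 libraries against 2, the smallest two-sided p of an exact permutation test is 0.333, and with 2 against 4 it is 0.133, so that no such test was run.

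**Figure D1:**
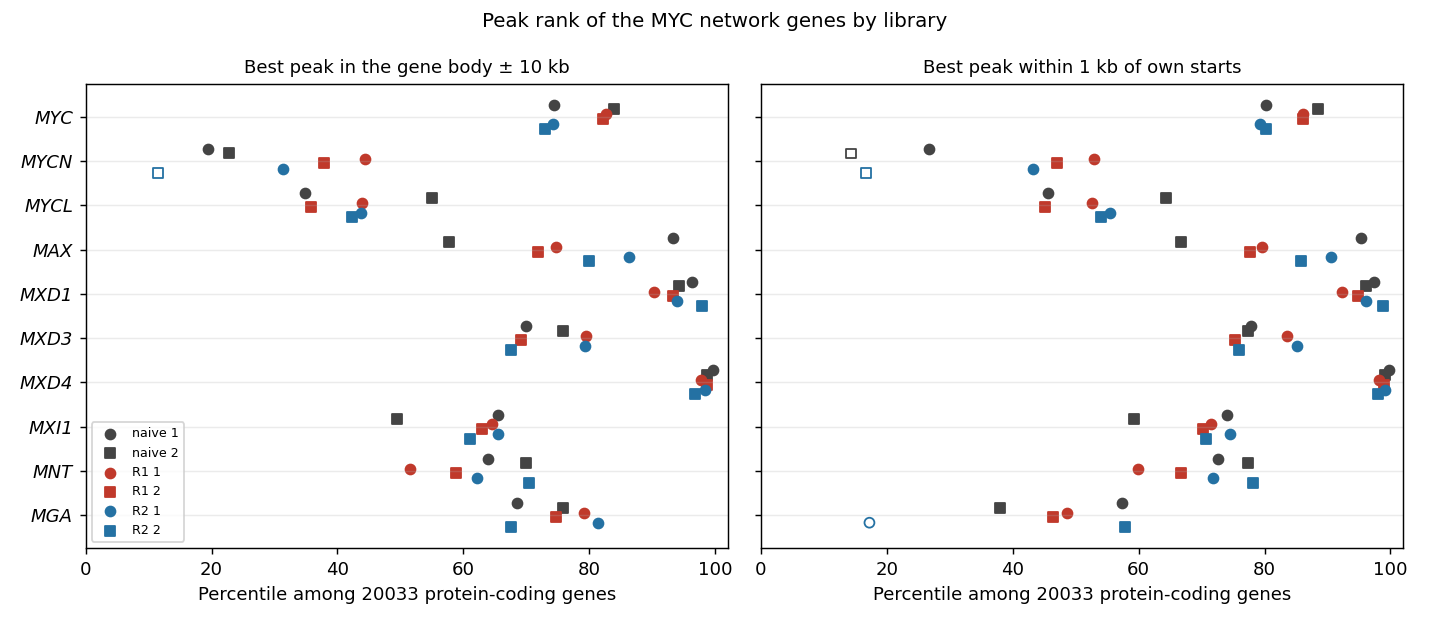
Percentile among 20033 protein-coding genes of each member's best peak, in the window of 10 kb either side of the gene (left) and within 1 kb of its own starts (right). Each point is 1 library, colours are cell types, circles and squares are the first and second library, and open symbols are libraries with no peak. By group means, MYCN and MYCL lie lowest in the left panel, MYCN, MYCL and MGA in the right one, MXD4 and MXD1 lie highest in both, and the R1 points of MYCN sit to the right of its naïve points in both panels.

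MYC had strong peaks at its start in every library, and in rank R1 stood above R2 while the naïve libraries spread over about the same range. At its own start it ranked at percentiles 80.2 and 88.6 among genes (naïve), 86.2 and 86.1 (R1) and 79.3 and 80.2 (R2), so that R2 and naïve cells overlapped. In the first naïve and the first R2 library the best peak of the window was not this one but one upstream, at a start of CASC11. The best window peak lay at percentiles 74.3 and 83.9 among genes (naïve), 82.7 and 82.2 (R1) and 74.3 and 73.1 (R2). The first naïve and the first R2 library were thus nearly level, and the naïve libraries differed more from each other than R1 differed from R2. The peak at the start, in the region chr8:127734847-127736633, reached 42 and 35 tags (naïve), 223 and 146 (R1) and 21 and 22 (R2). Over the background rate these are 18.4 and 25.9 (naïve), 28.1 and 26.9 (R1) and 24.7 and 24.5 (R2). R1 lay above R2 without overlap, and both lay near the higher naïve library.

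A pair of further MYC regions had peaks in all 6 lists. One, at -2111 bases from the start and at a start of the noncoding gene CASC11, reached 43 and 26 tags (naïve), 144 and 83 (R1) and 22 and 14 (R2). The other, 1520 bases downstream in the intron, reached 19 and 12, 85 and 71, and 14 and 9 tags in the same order. After quantile normalisation neither passed the test in any comparison. A weaker region 14352 bases downstream of the start had 11 and 10 tags (naïve) and 26 and 24 (R1), and no peak in R2. Regions with peaks in both naïve libraries and neither R2 library numbered 2 of 117 among the members, the other near MNT, against 4.64% of all regions.

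MYCN, the paralog whose amplification marks high-risk disease, had the weakest best peak of the members, or none, in the naïve and R2 libraries, whereas in both R1 libraries that of MYCL was slightly weaker. Its best peak reached 13 and 10 tags (naïve), 119 and 68 (R1), and 10 tags in the first R2 library, with none in the second. Over the background rate these are 5.68 and 7.40 (naïve), 14.98 and 12.5 (R1) and 11.8 in the first R2 library. Both R1 values exceeded both naïve values, and the single R2 value was close below R1.

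The position of the MYCN peaks also differed. In R1 the best summits lay at -231 and -790 bases from the start (chr2:15940550, plus strand), and in the first R2 library at -229. In naïve cells no peak covered the promoter printed above, and the best summits lay inside the gene, 1426 and 1796 bases downstream. The widest R1 peaks were 2760 and 3660 bases long, against 229 and 240 bases in naïve cells and 339 in the first R2 library. All of these merge into the region chr2:15939539-15944202, which also holds a start of the antisense gene MYCNOS. Since ATAC-seq has no strand, the 2 genes cannot be told apart there.

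Carried over to the other depths by the ratio of rates, the first R1 height, at the promoter, would give 34.3 and 20.2 tags in the naïve libraries. These are well over their lowest called pileups, but no naïve peak was called at the promoter. The 13 and 10 naïve tags were inside the gene, where the first R1 library had a further peak of 80 tags, 1924 bases downstream. The same scaling gives 12.7 and 13.5 tags in R2, where 10 were seen in the first library and no peak of 6 or more was called in the second. In percentile among genes MYCN stood at 19.5 and 22.7 (naïve), 44.4 and 37.9 (R1), and 31.4 in the first R2 library. The second R2 library, with no peak, shares the lowest place at 11.4.

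**Figure D2:**
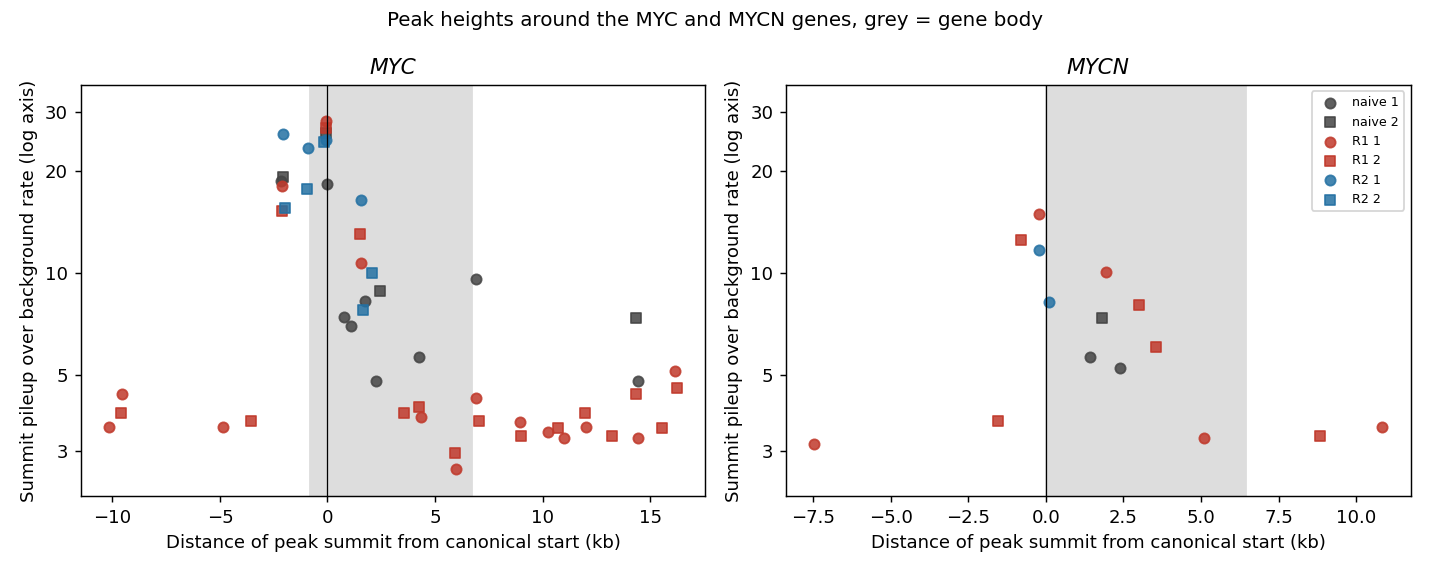
Summit pileup over background rate (log axis) of every peak in the windows of MYC (left) and MYCN (right), by distance from the canonical start in kb. Each point is a peak of 1 library, colours are cell types, symbols the 2 libraries, and grey the gene body. All cell types peak at the MYC start, at 18.4 to 28.1, whereas near the MYCN start only R1 and the first R2 library have a peak upstream and the naïve peaks lie inside the gene.

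The R1 signal at MYCN was not limited to the gene. Of the 1 Mb centred on its start, 11.5% and 8.304% lay under R1 peaks, 1.44 and 1.27 times the share of the whole genome in the same lists. In naïve cells the relative coverage was 0.189 and 0.127, and in R2 it was 0.197 and 0.200. Among the same windows of all genes it ranked at percentiles 50.4 and 49.5 in R1, 24.2 and 17.1 in naïve cells and 15.5 and 16.3 in R2. R1 thus lay at the middle of all genes and somewhat above its own genome. The other 4 libraries lay well below both of these levels. Ranked among the same 1 Mb windows of all 20033 genes, this share moved by 29.3 percentile points from naïve to R1, which is place 187 from the top, with 0.933% of genes at least as high. From naïve to R2 it moved by -4.77 points. By overlap, the surroundings of MYCN and MNT had both R1 libraries above both naïve ones, against 36.6% of genes, and those of MYCL, MAX, MXD3, MXI1 and MGA had both below, against 46.2%.

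In steps of 100 kb the R1 coverage was raised on both sides of the gene. It was highest between 200 and 100 kb upstream, at 4.26 and 3.55 times the genome, where naïve libraries had 0.713 and 0.229 and R2 libraries 0.227 and 0.510. The next step further upstream had 2.59 and 2.36 in R1 and at most 0.387 elsewhere. Between 500 and 400 kb upstream no library had a peak, and between 400 and 300 kb upstream R1 values of 0.620 and 0.626 lay among the others. The 32 other protein-coding genes within 5 Mb of MYCN had a median difference of 15.2 percentile points between R1 and naïve cells and of -0.895 between R2 and naïve cells, beside 20.04 and 0.313 for MYCN itself.

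**Figure D3:**
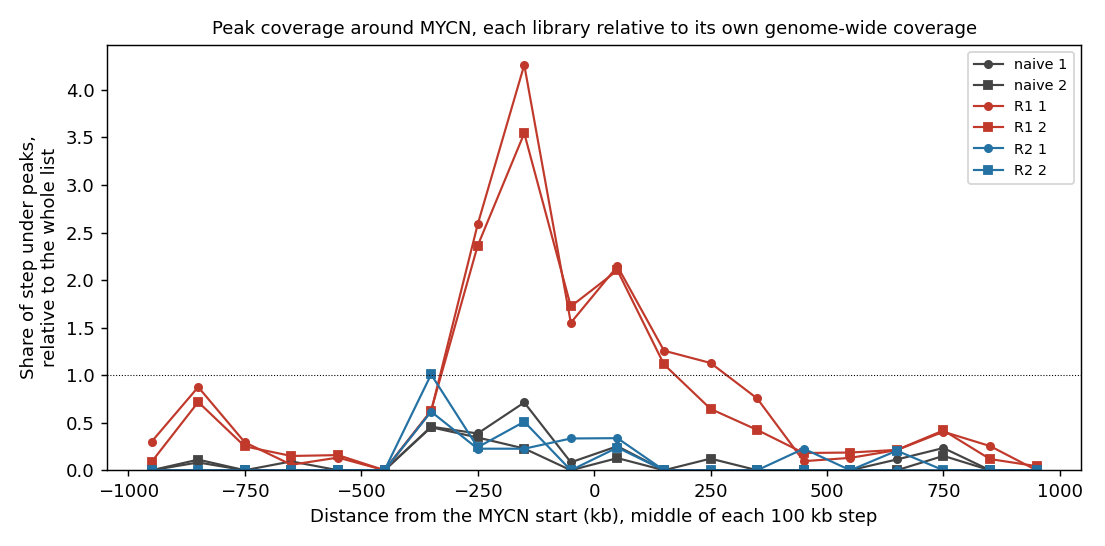
Share of each 100 kb step around the MYCN start that lies under peaks, relative to the same share of the whole genome in that library (dotted line, 1). Each line is 1 library, and colours are cell types. Both R1 lines rise between 300 kb upstream and 300 kb downstream, to 4.26 and 3.55, and the naïve and R2 lines stay at or below 1.01.

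Because R1 lists reach to weaker peaks, the count was repeated with peaks of at least 7.06 times the background rate, the highest calling limit of any list. This leaves 41938 and 45451 peaks in R1, fewer than the 55143 and 94927 of naïve cells and the 67558 and 72988 of R2. Within 1 Mb centred on MYCN there were then 12 and 10 peaks in R1, 2 and 8 in naïve cells and 7 and 6 in R2. R1 was still highest, although its whole lists were the shortest. The genes with the pattern most like MYCN over the 6 libraries were KCNK10, PNMA8C and CNRIP1, at Euclidean distances of 5.81, 6.62 and 10.8 percentile points. For MYC they were SH3D19, MYO1D and ENSG00000285253, at 5.64, 6.45 and 6.75 points.

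MYCL, the third paralog, had an intermediate peak at its start that did not separate R1 or R2 from naïve cells. It reached 21 and 21 tags (naïve), 118 and 65 (R1) and 13 and 13 (R2), in the region chr1:39900567-39902769. Over the background rate these are 9.18 and 15.5, 14.9 and 12.0, and 15.3 and 14.5. All R1 and R2 values fell between the 2 naïve values. The percentile among genes of its best window peak ran from 34.9 to 55.0 in naïve cells, which spans R1 and R2. At its own start R1 ranked at percentiles 52.6 and 45.1, below R2 at 55.4 and 54.0 without overlap.

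MAX, the obligate partner of the whole network, was open at its start in all libraries. The peak in chr14:65101633-65103337 reached 66 and 22 tags (naïve), 196 and 124 (R1) and 28 and 25 (R2), or 28.8 and 16.3, 24.7 and 22.8, and 32.9 and 27.8 times the rate. The naïve libraries were the furthest apart of any member, at percentiles 93.3 and 57.6 among genes. R1 lay at 74.6 and 71.9 and R2 at 86.2 and 80.0, both inside the naïve range and apart from each other.

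Among the repressors, MXD1 and MXD4 held the strongest peaks of the network. MXD1, an antagonist of MYC in differentiating cells, reached 75 and 46 tags at its start (naïve), 262 and 189 (R1) and 35 and 45 (R2), or 32.8 and 34.05, 33.0 and 34.8, and 41.2 and 50.1 times the rate. Its percentiles among genes were 96.3 and 94.3 (naïve), 90.3 and 93.4 (R1) and 94.0 and 97.9 (R2). R1 was lower than naïve in rank without overlap, while its height over the rate overlapped naïve cells.

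MXD4 ranked within the top few percent of genes everywhere. It reached 120 and 62 tags (naïve), 353 and 253 (R1) and 47 and 41 (R2), or 52.5 and 45.9, 44.5 and 46.6, and 55.3 and 45.6 times the rate. At its own start the percentiles among genes were 99.81 and 99.18 (naïve), 98.23 and 98.99 (R1) and 99.17 and 98.04 (R2). All 4 resistant libraries were thus below both naïve libraries there, by as little as the step from 99.18 to 99.17, and 13.5% of genes shared this order.

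The MXD4 window was also the most covered by peaks. Peaks took 62.9% and 52.4% of it (naïve), 79.4% and 78.0% (R1) and 21.5% and 24.8% (R2). In R1 this was made by 6 and 7 wide peaks, the widest of 11876 bases, and in naïve cells by 24 and 24 narrower ones. Starts of POLN, HAUS3 and ENSG00000290263 lie in the same window, and its 1 Mb surroundings were covered 5.22 to 7.67 times as much as the genome in naïve and R1 lists, and 6.78 and 7.31 times in R2.

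MXD3 and MXI1 did not separate the cell types in rank. The MXD3 start peak, in chr5:177308758-177313348, reached 40 and 27 tags (naïve), 211 and 119 (R1) and 24 and 20 (R2), or 17.5 and 19.98, 26.6 and 21.9, and 28.2 and 22.2 times the rate. R1 and R2 values were all above naïve by this measure, yet percentiles at the own start overlapped, with 77.8 and 77.4 (naïve), 83.5 and 75.4 (R1) and 85.2 and 75.9 (R2). The MXI1 peak, 3658 bases into the gene at a start of its own, reached 37 and 17 tags (naïve), 169 and 109 (R1) and 19 and 18 (R2). A second MXI1 start region, 18271 bases into the gene, reached 34 and 19, 147 and 84, and 15 and 15 tags.

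MNT, the MAX partner found in most cell types, ranked lower in R1. Its percentiles among genes were 63.9 and 69.9 (naïve), 51.5 and 58.9 (R1) and 62.1 and 70.5 (R2). Over the background rate its best peak stood at 15.7 and 19.98 (naïve), 17.2 and 18.8 (R1) and 21.2 and 23.4 (R2). Naïve and R1 heights overlapped while the ranks did not. These values do not all describe 1 site. The best summit lay 4178 and 4132 bases downstream of the canonical start in the first naïve and the second R2 library. In the others it lay 8129 to 8319 bases downstream. Peaks at the printed promoter reached 34 and 15 tags (naïve), 134 and 79 (R1) and 15 and 9 (R2). The genes within 5 Mb of MNT had a median R1 difference of -0.265 points beside -11.7 for MNT. Peaks covered 15.6% and 14.6% of the window (naïve), 58.7% and 50.7% (R1) and 7.97% and 11.4% (R2).

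For MGA the best peak of the window lay in every library at the start of another gene, MAPKBP1, 114013 to 114077 bases downstream of the MGA canonical start, with 39 and 30 tags (naïve), 210 and 130 (R1) and 25 and 20 (R2). At MGA itself, in chr15:41659881-41660930, the peak reached 27 and 12 tags (naïve) and 108 and 67 (R1). Only the second R2 library had a peak there, of 14 tags. Its percentiles among genes at the own start were 57.4 and 37.9 (naïve) and 48.5 and 46.3 (R1), which overlap.

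**Figure D4:**
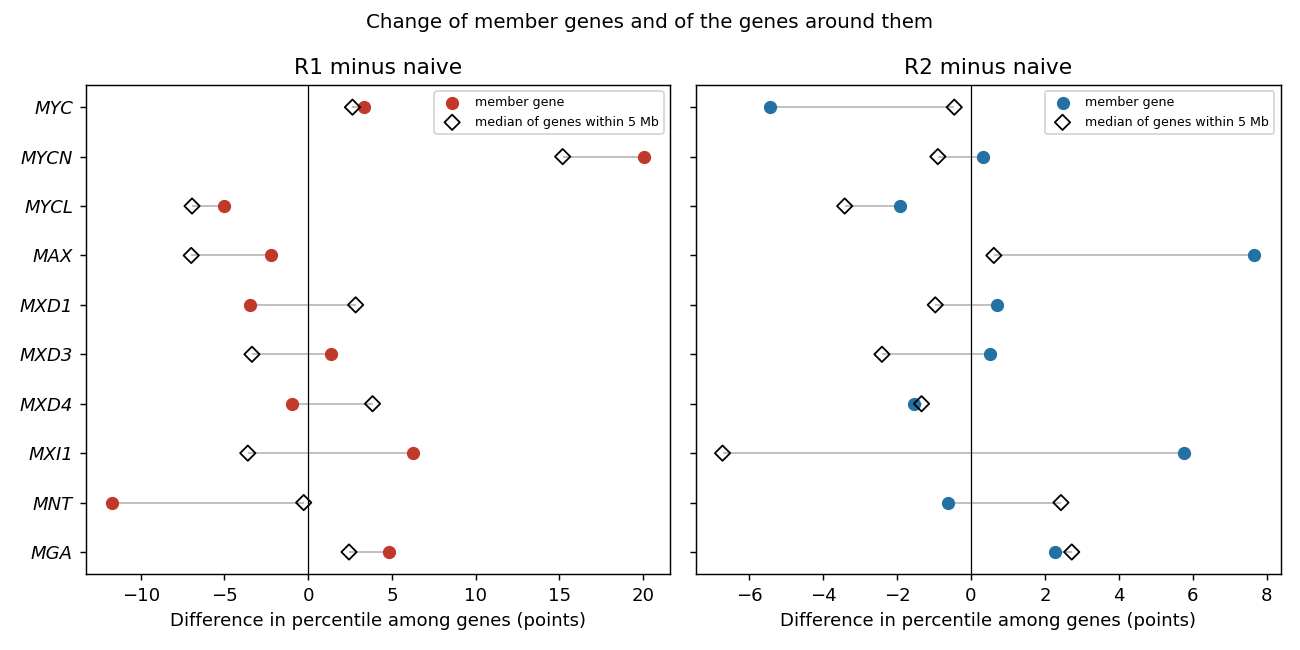
Difference in percentile among genes from naïve cells to R1 (left) and R2 (right), group means of 2 libraries, for each member (filled) and the median of the other protein-coding genes within 5 Mb (open diamonds). In R1 MYCN and its neighbours lie together at 20.04 and 15.2 points, and MNT lies at -11.7 beside neighbours at -0.265.

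The height of start peaks was tested with limma over the 24147 regions that had a peak in all 6 lists, as quantile-normalised log2 pileup. The members take part with 8 genes, and MYCN and MGA could not be tested since a list had no peak there. For MNT the heights tested came from the summits inside the gene given above. These do not all lie at 1 site, and none is at the printed promoter. No member passed an adjusted p of 0.05 in any comparison. At an unadjusted p of 0.05 the count was 0 of 8 between R1 and naïve cells, 1 of 8 between R2 and naïve cells and 0 of 8 between R1 and R2. Over all protein-coding genes with such a region at a start, 7.87% were called higher and 2.68% lower in R1 than in naïve cells, 1.32% and 0.781% in R2 than in naïve cells, and 3.03% and 0.931% in R1 than in R2. The median log2 difference of the members was -0.02 for R1 against naïve cells, 0.01 for R2 against naïve cells and 0.06 for R1 against R2, beside 0.11, -0.02 and 0.13 over all genes tested.

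The single member below an unadjusted p of 0.05 was MXD4. Its normalised log2 pileup was 7.21 and 6.74 in naïve cells and 6.60 and 6.43 in R2, a difference of -0.46 (SE 0.17, limma adjusted p = 0.157, unadjusted 95% interval -0.84 to -0.08). In R1 it was 6.64 and 6.80, a difference of -0.26 from naïve cells (SE 0.17, limma adjusted p = 0.374). The R2 values lie below both naïve values, but over all regions this is not past the threshold.

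For MYC the normalised values were 5.60 and 5.91 (naïve), 5.89 and 5.86 (R1) and 5.56 and 5.59 (R2). R1 differed from naïve cells by 0.12 (SE 0.18, interval -0.28 to 0.52), R2 differed by -0.18 (interval -0.58 to 0.22), and R1 differed from R2 by 0.30 (interval -0.10 to 0.70, limma adjusted p = 0.370). The widest interval of any member was that of MAX, which ran from -0.72 to 0.53 for R1 against naïve cells. With 2 libraries a cell type, a difference of a size inside these intervals could have been missed for a member. Simulated data had 24147 regions, 200 of them changed between R1 and naïve cells. Of these, 99.5% were called at 4-fold, 49.5% at 2-fold and 0% at 1.5-fold. All regions of a cell type shared 1 spread there, so these shares need not hold for the real regions. In the real regions FBXW7 was called at a log2 difference of 0.61 between R1 and naïve cells.

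**Figure D5:**
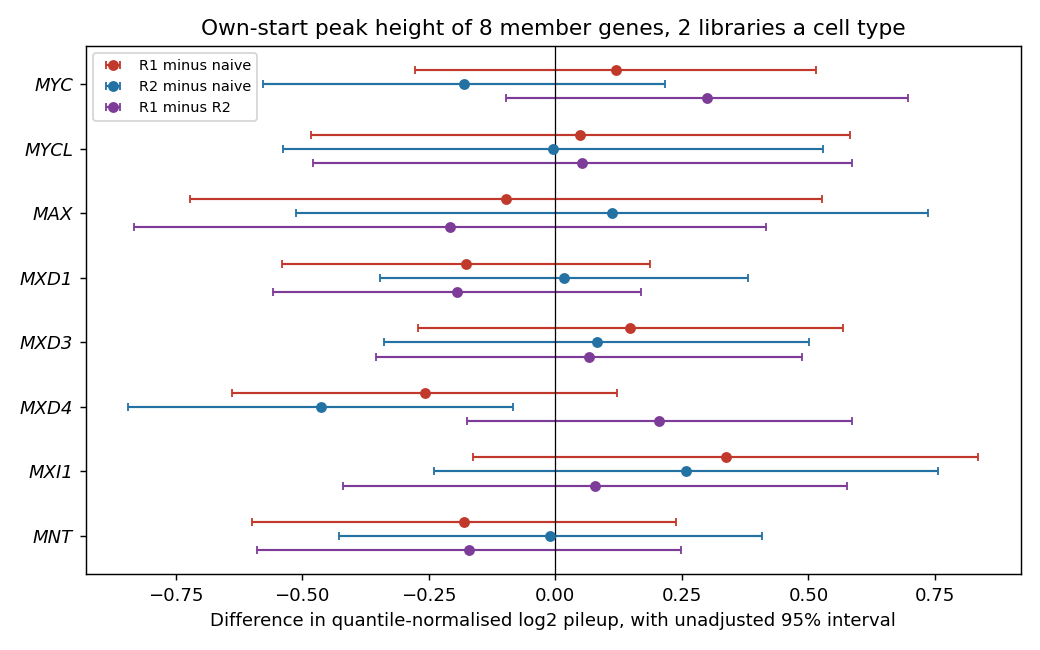
Difference in quantile-normalised log2 pileup of the start region for the 8 members that could be tested, with unadjusted 95% intervals from limma, 2 libraries a cell type. Points are colored by comparison, and the MNT values come from summits inside the gene. All intervals cross 0 except that of MXD4 for R2 minus naïve, from -0.84 to -0.08, whose adjusted p is 0.157.

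How often peaks were shared describes the rest of the windows. Of the 117 member regions, 18 had a peak in all 6 lists (15.4%), against 6.47% of all regions. A peak in both R1 lists and in no other was seen in 29 regions (24.8%), against 30.0% of all regions, and these fell in every member but MYCN. They were weak, at 21 to 43 tags in the first R1 library. Scaled to R2 by the background rates they would give at most 4.604 and 4.87 tags, under the lowest called pileup of 6 in all 29, and in the first naïve library 18 of the 29 would fall under its limit of 9. A further 44 regions had a peak in 1 list alone, 31 of them in the first R1 list. The share of all regions with a peak in 1 list alone was not counted, so this count describes no trait of the members. No member region had peaks in both R2 lists and no naïve list, against 0.314% of all regions, or in both naïve lists and no R1 list, against 0.214%.

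The proteins that act with the network were followed at their own starts in the same fit. The lists were chosen with earlier results of these data known. Among 9 MYC coactivators, 1 fell and none rose in R1 against naïve cells, against 2.68% and 7.87% of all genes tested. The 1 that fell was RUVBL1, an ATPase of chromatin remodelling complexes, with a difference of -0.68 (limma adjusted p = 0.0302). None passed in R2 against naïve cells. WDR5, a subunit of histone methyltransferase complexes that MYC binds, was higher in R1 than in R2 by 0.91 (SE 0.24, limma adjusted p = 0.0495). A call in this direction was made for 3.03% of all genes tested. None of the 3 genes of the MLX branch passed in any comparison, nor did any of the 6 testable corepressors of the 8 listed.

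In the PRC1.6 list of 10 genes, which are partners of MGA, 1 passed. TFDP1, an E2F dimerization partner, rose in both resistant types, by 1.00 (R1) and 0.80 (R2) (limma adjusted p = 0.00571 and 0.0341). Of all genes tested, 7.87% were called higher in R1 and 1.32% in R2. The regions within 5 Mb of TFDP1 on chromosome 13 had medians of 0.78 and 0.80, and whether it stood apart from them was not tested. All 10 PRC1.6 genes had a difference above 0 in R1, against 7327 of 12032 genes, with a median of 0.34 beside 0.11 over all genes tested. In R2 it was 6 of 10, against 5790 genes, with a median of 0.06 beside -0.02. In R1, L3MBTL2 (0.58), CBX3 (0.34), YAF2 (0.16) and RYBP (0.11) lay below the medians around them (0.67, 0.35, 0.34 and 0.16). The rest of the list lay above theirs. The part of the surroundings in this was not tested.

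Of 6 reported genes of MYC and MYCN protein turnover, 3 were higher in R1 than in naïve cells, against 7.87% of all genes tested. CIP2A, an inhibitor of the phosphatase that acts on MYC, rose by 1.17 (limma adjusted p = 0.00813) beside a median of 0.36 around it. AURKA, a kinase that stabilizes MYCN, rose by 0.73 (adjusted p = 0.0223) beside 0.54. FBXW7, the ubiquitin ligase receptor for phosphorylated MYC, rose by 0.61 (adjusted p = 0.04998) beside 0.40. The surroundings of these genes moved in the same direction, and the part of this in the result was not tested. FBXW7 was also higher in R1 than in R2, by 0.84 (SE 0.18, limma adjusted p = 0.0203), a call made for 3.03% of all genes tested.

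Of 20 textbook MYC target genes, 19 could be tested and 1 passed in R1, where 7.87% of all genes tested were called higher and 2.68% lower. This was E2F1, which rose by 0.66 in R1 (limma adjusted p = 0.0248) beside a median of 0.58 around it. None passed in R2 against naïve cells or in R1 against R2, and the median of the list was -0.08 in R1 and -0.00 in R2. All 6 calls against naïve cells in R1 given for these lists were lost when either R1 library was left out, 5 without the first and 3 without the second naïve library. The R2 call of TFDP1 was lost without any 1 of the 6 libraries, and both R1 against R2 calls without either R1 library or the second R2 library. With regions of the first R2 list 3 of the 6 R1 calls were lost, without centring 2 of them, and both R1 against R2 calls under each of these settings. The R2 call of TFDP1 was also lost with library weights.

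Of the cell type markers, 8 adrenergic, 7 mesenchymal and 2 blood markers could be tested, and 3 passed in R1 against naïve cells. Of all genes tested, 7.87% were called higher and 2.68% lower in R1, and 1.32% higher in R2. ISL1, a homeodomain transcription factor of the adrenergic list, rose by 0.71 in R1 (limma adjusted p = 0.0463) and by 1.09 in R2 (adjusted p = 0.0234), beside medians of 0.56 and 0.36 around it. Of the mesenchymal list, FN1, which encodes fibronectin, rose by 0.99 in R1 (limma adjusted p = 0.0172), beside 0.19 around it. VIM, which encodes the intermediate filament vimentin, fell by 0.76 (limma adjusted p = 0.0419), beside -0.12. The mesenchymal list thus held a call in each direction, and no marker passed in R1 against R2. Without either R1 library or the first naïve library all 3 R1 calls were lost, without the second naïve library 2, and the R2 call was lost without any 1 library. With regions of the first R2 list all 3 R1 calls were lost. The part of these differences in the results of the members was not tested.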

How the data were processed

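Per the labels and the methods, the authors aligned paired-end reads with BWA 0.7.12-r1039, marked duplicates with Picard 1.65, filtered with SAMtools 1.3.1 and called peaks in each library with MACS2 2.2.7.1 at a q of 0.01. The methods name hg19, the submitters' processing notes list hg19 and hg38, and the positions fit hg38, so hg38 with GENCODE release 44 was used. The deposited columns hold a fold enrichment (a ratio over background), −log10 values of p and q, and the summit offset in bases. A fold is the pileup plus 1 over the rate plus 1, which gave whole pileups and the rate. The reads were not used.

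The members and the gene lists were chosen with earlier results of these data known. All 10 members are named, with their best regions, the regions at their starts and those that set cell types apart. From each list, at most 4 genes past the threshold are named. The result for 1 gene of the protein turnover list is not reported here, and the counts of that list leave it out. For MYC and MYCN, the 3 genes nearest in percentile are named.

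Overlap meant 1 shared base. Ranks used column 8. Own-start heights were compared with limma 3.58.1 in R 4.3.3 (trend, one coefficient a cell type, quantile-normalised log2 pileup, Benjamini-Hochberg over all regions, threshold 0.05). Scripts were tested on simulated data. Alternatives were other scalings, regions of the first R2 list, a −log10 q of at least 5, windows of 2 and 25 kb, ranking by fold, a replicate block, and each library left out. Library weights and a common height limit were added after seeing the data. Other software was Python 3.11.15, NumPy 2.4.6 and pandas 2.3.3.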

Additional observations from a re-analysis of the deposited data

Results flagged for a closer look

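By the test of R1 against R2, the differences of R1 and R2 from naïve cells differed for 2 genes of the pathway lists and no member. Of all genes tested, 3.03% were called higher in R1 than in R2 and 0.931% lower. For FBXW7 the normalised log2 height was 0.61 above naïve cells in R1 and -0.23 from them in R2, a difference of 0.84 (SE 0.18, limma adjusted p = 0.0203). Under the alternatives its adjusted p ran from 0.00622 to 0.208. For WDR5 the values were 0.11 and -0.81, a difference of 0.91 (SE 0.24, limma adjusted p = 0.0495), and its adjusted p ran from 0.0152 to 0.399. Regions around FBXW7 had a median difference of 0.39 between R1 and R2, and those around WDR5 of -0.11. What sets the genes apart was not tested.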

How the results depend on the processing

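No member passed the limma threshold under any alternative. Their lowest adjusted p was 0.0796, for MXI1 in R2 against naïve cells with pileup over rate that was not centred. The numbers of all regions called did depend on the choices. In R1 against naïve cells 1333 regions were higher and 1454 lower, and 2572 and 1774 without centring. In R2 against naïve cells the split was 539 to 262, against 3811 to 47 without centring and 702 to 834 with regions of the first R2 list, and in R1 against R2 it was 433 to 1163, against 189 to 3964 and 2356 to 2347. In total, R1 against naïve cells had 4600 calls when centred on the median, 4346 without centring and 4882 with library weights. R2 against naïve cells had 3858 without centring, 1536 with regions of the first R2 list, 259 with library weights and 496 with the common height limit, and R1 against R2 had 3256, 4153, 4703 and 1053 for centring, no centring, those regions and the height limit. The cause of these shifts was not tested. Leaving out 1 library gave 169 (without the first R1 library) to 3521 (without the second R2 library) calls, 0 (without the first naïve library) to 216 (without the first R1 library), and 253 (without the first R1 library) to 1354 (without the second naïve library), where a lone library is assumed to vary like the other groups. Replicate numbers do not pair the libraries (correlations of their differences 0.0543, -0.0226 and -0.0011), and the replicate block gave 3078, 1013 and 1800 calls.

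The count of members with all 4 resistant libraries on 1 side of naïve cells was 1 in place of 0 with windows of 2 kb or 25 kb, with a −log10 q of at least 5 and at own starts, and 0 to 4 with a library left out. For R2 against naïve cells it was 1 in place of 2 at own starts, and 2 to 8 with a library left out, the highest without the second R2 library. For R1 against naïve cells it was 3 to 9, the highest without the second naïve library. A peak in every library was found for 9 to 10 members. Leaving a library out can only raise such counts, since fewer libraries have to lie apart or hold a peak. At own starts all 4 resistant libraries stood above naïve cells for 18.6% of genes and below them for 13.5%. The shares of all genes were not counted with a library left out, with the other windows or with the stricter q. These counts therefore describe no trait of the members.

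With pileup over rate that was not centred, which moves the median of all regions by 0.33 for R2 against naïve cells and by -0.24 for R1 against R2, the sign of a member turned for MAX (0.13), MXD1 (0.0197) and MNT (0.021) in R1 against naïve cells, MYC (0.17), MYCL (0.32), MXD4 (0.033) and MNT (0.33) in R2 against naïve cells, MYCL (-0.16), MXD3 (-0.055), MXD4 (-0.14) and MXI1 (-0.034) in R1 against R2. With regions taken from the first R2 list the sign turned for MYC (-0.025) and MYCL (-0.063) in R1 against naïve cells, MYC (0.0012), MYCL (0.22) and MNT (0.26) in R2 against naïve cells, MYC (-0.026), MYCL (-0.28), MXD3 (-0.26), MXD4 (-0.11) and MXI1 (-0.25) in R1 against R2. With centring on the median it turned for MAX (0.039) in R1 against naïve cells, MYCL (0.017) and MNT (0.027) in R2 against naïve cells. With the common height limit it turned for MYCL (0.027) in R2 against naïve cells. With each library left out in turn, the members whose sign turned ranged, in R1 against naïve cells, as follows: MYC -0.032 to 0.27, MYCL -0.27 to 0.36, MAX -0.61 to 0.43. In R2 against naïve cells they ranged as follows: MYCL -0.32 to 0.30, MAX -0.40 to 0.63, MXD1 -0.13 to 0.16, MXD3 -0.065 to 0.22, MXI1 -0.044 to 0.57, MNT -0.10 to 0.0804. In R1 against R2 they ranged as follows: MYCL -0.064 to 0.17, MXD3 -0.0700 to 0.21.

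Limits are few libraries and unequal depth. The lowest called pileup was 7.06 and 6.68 times the background rate in R2 and 2.27 and 2.58 times in R1, so that weaker open chromatin is not listed in R2. MYCN and MGA have no test of height. Peak lists give no values where nothing was called, and the intervals cover only the spread between the libraries.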
